A study of Mus musculus with 9 samples.

Results

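10 genes of major histocompatibility complex (MHC) class I presentation were examined in mouse peritoneal macrophages 2 h after interferon. They were the heavy chain genes H2-K1, H2-T24 and H2-M3, the light chain gene B2m, the transporter genes Tap1 and Tap2, the loading genes Tapbp and Tapbpl, the peptide-trimming gene Erap1 and the regulator gene Nlrc5. Each was taken from its probe set of highest mean log2 value among those annotated with that symbol alone, and 9 of the 10 had one, among 19752 genes in all. H2-K1 had none: the 2 probe sets that carry its symbol also carry H2-D1 and LOC547349, so no value is given for it. The array therefore gave no separate value for either of the classical heavy chain genes H2-K1 and H2-D1.

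Class I molecules display short peptides from inside the cell to CD8 T cells. Peptides cut by the proteasome are carried into the endoplasmic reticulum by a transporter built of the TAP1 and TAP2 proteins, trimmed there by ERAP1 and fitted onto a heavy chain paired with beta-2 microglobulin, with tapasin (Tapbp) and its relative TAPBPR (Tapbpl) as helpers. NLRC5 is a transcriptional coactivator of class I genes and is itself induced by interferons, which raise class I presentation in most cell types.

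Macrophages were sorted from peritoneal lavage of C57BL/6 males aged 6 weeks, which had received 10000 U of recombinant interferon alpha (IFNa, type I, n = 4 arrays), 8000 U of recombinant interferon gamma (IFNg, type II, n = 2) under the skin 2 h earlier, or no treatment (n = 3). The sort label of the treated arrays is F4/80+ ICAM2+ and that of the untreated arrays F4/80+ alone, and no mice injected with vehicle were included. Against untreated arrays, interferon therefore cannot be told apart from injection or from the difference in sort label. The labels do not say whether each array came from 1 mouse, so p-values measure the spread between these samples. Sorted cells give 1 value per gene and array, in which fewer cells of a type and less RNA per cell cannot be told apart.

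The promoter sequences of the genes are shown first, so that they can be searched for the elements through which interferon-activated factors and NLRC5 are known to act. RefSeq promoter windows (GRCm38.p6, 250 bases before to 50 after the start site, read in the direction of the gene) were found for 6 of the 10 genes, B2m, Erap1, Tapbp, H2-K1, Tap1 and H2-M3. The 4 not matched were Tap2, Tapbpl, H2-T24 and Nlrc5. H2-K1 had 2 windows, and the more upstream of these is shown. The windows of H2-K1 and Erap1 lie wholly inside the annotated bounds of their genes. Their positions therefore count from a start site within the gene, not from its outermost annotated end. Matches on either strand were sought to GAAA, any 2 bases and GAAA (an interferon-stimulated response element, bound by IRF and ISGF3 factors), TTC, any 3 bases and GAA (a gamma-activated site), GGG, any 2 bases, TT, any base and CC (a kappaB site), CCAAT (bound by NF-Y) and TGACG (bound by CREB and ATF proteins). Of 32851 windows of 300 bases, 3.44%, 8.3%, 4.79%, 37.4% and 20.8% held them in that order. Capitals below mark every match, and positions count from the start site to the first base of a match. Only exact matches were sought, so a window without a match may still hold an element that differs in some bases.
B2m, chr2:122147437-122147736, + strand: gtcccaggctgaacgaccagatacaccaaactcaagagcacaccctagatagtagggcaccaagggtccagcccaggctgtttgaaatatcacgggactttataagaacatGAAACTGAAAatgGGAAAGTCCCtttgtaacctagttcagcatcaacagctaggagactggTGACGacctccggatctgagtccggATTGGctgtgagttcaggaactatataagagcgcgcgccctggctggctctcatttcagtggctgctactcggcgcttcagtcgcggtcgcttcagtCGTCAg
H2-K1, chr17:34000298-34000597, - strand, the upstream of its start sites: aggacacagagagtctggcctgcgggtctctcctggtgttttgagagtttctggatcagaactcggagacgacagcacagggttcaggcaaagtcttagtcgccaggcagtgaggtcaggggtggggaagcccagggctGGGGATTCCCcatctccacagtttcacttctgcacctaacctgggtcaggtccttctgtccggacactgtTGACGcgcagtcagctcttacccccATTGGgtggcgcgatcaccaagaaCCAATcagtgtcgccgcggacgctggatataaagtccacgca
H2-M3, chr17:37269984-37270283, + strand: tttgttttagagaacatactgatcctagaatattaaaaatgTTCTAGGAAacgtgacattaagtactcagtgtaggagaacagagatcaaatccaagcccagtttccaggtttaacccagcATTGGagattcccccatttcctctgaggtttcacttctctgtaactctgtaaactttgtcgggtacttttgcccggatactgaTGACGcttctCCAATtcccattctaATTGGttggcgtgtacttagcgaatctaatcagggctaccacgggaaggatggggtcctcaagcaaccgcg
Tap1, chr17:34187306-34187605, + strand: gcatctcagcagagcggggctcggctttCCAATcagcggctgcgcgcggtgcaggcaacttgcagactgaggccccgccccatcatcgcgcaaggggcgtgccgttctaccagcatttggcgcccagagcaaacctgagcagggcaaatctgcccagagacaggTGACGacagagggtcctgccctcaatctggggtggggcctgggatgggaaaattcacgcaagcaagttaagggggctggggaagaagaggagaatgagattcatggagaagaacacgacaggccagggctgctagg
Erap1, chr13:74639603-74639902, + strand: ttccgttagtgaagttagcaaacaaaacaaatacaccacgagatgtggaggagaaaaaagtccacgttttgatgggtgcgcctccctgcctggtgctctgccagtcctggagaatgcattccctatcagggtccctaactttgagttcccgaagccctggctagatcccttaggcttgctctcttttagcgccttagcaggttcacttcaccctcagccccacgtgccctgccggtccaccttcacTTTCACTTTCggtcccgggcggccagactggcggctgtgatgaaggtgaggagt

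B2m held a response element match, GAAACTGAAA at -139, beside a kappaB match at -126, and Erap1 held 1 in reverse, TTTCACTTTC at -4. H2-M3 held a gamma-activated match, TTCTAGGAA at -209, and H2-K1 a kappaB match, GGGGATTCCC at -111. In B2m, H2-K1 and H2-M3 a TGACG was followed after 20 bases by ATTGG, the reverse of CCAAT, starting at -78 and -53, -41 and -16, and -46 and -21. As background, TGACG and CCAAT mark the X2 and Y boxes of the class I promoter element on which NLRC5 acts. This spacing was sought after the sequences had been seen, and on either strand it stood in 31 of all 32851 windows (0.0944%), those of H2-D1 among them. The Tap1 window held a CCAAT at -222 and a TGACG at -86 and no match to the first 3 motifs. It shares 275 bases with the window of Psmb9, which lies next to Tap1 and is read the other way. The Tapbp window, not printed here, held a CCAAT in reverse at -248 and at -165 and no match to the other motifs.

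Median intensity was 162.2 to 178.3 over the 9 arrays. Between quartiles, intensity spanned log2 2.16 in IFNa replicate 4 and 2.27 in untreated replicate 1, against 2.68 to 3.03 in the others, so counts are also given without these 2 narrow arrays. The sort marker genes did not pass: Adgre1 (F4/80) changed by log2 0.04 ± 0.10 after IFNa and 0.01 ± 0.12 after IFNg (standard error, SE), and Icam2 by -0.24 ± 0.14 and 0.05 ± 0.17. Of 10 large peritoneal macrophage genes, Gata6, a factor of their identity, fell in both comparisons (-1.05 ± 0.17 and -1.16 ± 0.21, limma adjusted p = 0.00997 and 0.0242) and Mertk rose after IFNa (0.62 ± 0.13, adjusted p = 0.0318). Of the other cell types' markers, Plac8 alone passed, out of 8 for small macrophages, monocytes and dendritic cells, and after IFNa only (1.00 ± 0.18, limma adjusted p = 0.0156). After IFNg Plac8 changed by 1.03 ± 0.21 and did not pass (adjusted p = 0.0537). No marker passed of 7 for B cells, 8 for T and NK cells, 6 for mast cells, 8 for neutrophils and eosinophils or 7 for mesothelial and stromal cells. The summed intensity of the mast cell markers was 343 to 407 over the IFNa arrays and 336 to 339 over the IFNg arrays, against 393 to 536 over the untreated arrays, so the IFNg arrays lay below the untreated ones. The summed intensity of the B cell markers ranged from 677 to 2210 over the IFNa arrays and from 710 to 773 over the IFNg arrays, against 846 to 1166 over the untreated arrays. Their part in the results below was not tested.

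After IFNa, 2 of the 9 genes rose, H2-T24 and Tap1, and after IFNg the same 2 rose. Changes are log2 differences from a limma model over all genes and a gene was called at a Benjamini-Hochberg adjusted p under 0.05. Of all genes 2.65% were called after IFNa (1.79% higher) and 1.35% after IFNg (1.24% higher). Every one of the 9 estimates was above 0 in both comparisons, with medians of log2 0.19 after IFNa and 0.53 after IFNg, against -0.02 and -0.06 over all genes. The share of all genes above 0 was not counted. Tapbpl after IFNa and H2-M3, B2m and Tapbp after IFNg changed sign under some alternatives. Both comparisons used the same untreated arrays. Without the narrow arrays 3 genes were called after IFNa and 4 after IFNg, against 5.6% and 2.55% of all genes, the additions being Nlrc5 after IFNa and Nlrc5 and Tap2 after IFNg.

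**Figure D1:**
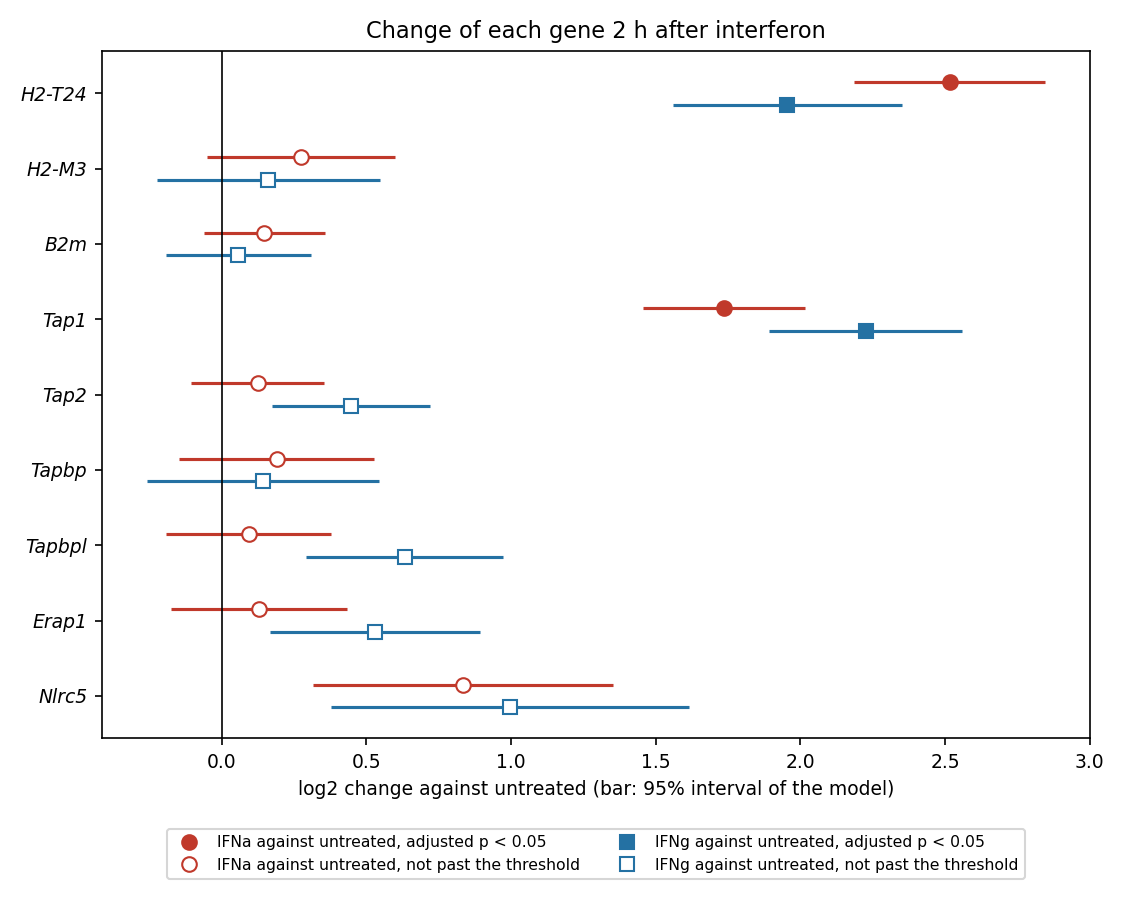
Log2 change of each of the 9 measured genes after IFNa (circles) and after IFNg (squares) against untreated, with 95% intervals from the model; filled symbols passed the threshold. H2-T24 and Tap1 stand apart at 1.74 to 2.52, and the other 7 genes lie between 0.06 and 1.00.

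Among heavy chains, H2-T24, a non-classical class I gene, had intensities of 3543, 3531, 3702 and 2795 in the IFNa arrays and 2406 and 2173 in the IFNg arrays, against 529, 546 and 710 in untreated arrays. Every treated array lay above every untreated one, and the IFNa arrays lay above both IFNg arrays. The gene rose by log2 2.52 ± 0.15 after IFNa (5.72-fold, limma adjusted p = 1.21e-05) and by 1.96 ± 0.18 after IFNg (3.88-fold, adjusted p = 4.75e-04). IFNa replicate 4, a narrow array, was the lowest of its group.

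H2-M3, whose product presents N-formylated peptides of bacteria and mitochondria, had intensities of 473, 488, 466 and 442 after IFNa and 432 and 432 after IFNg, against 301, 433 and 442 untreated. The groups overlapped, and untreated replicate 1, the other narrow array, lay far below the rest. The change was 0.27 ± 0.14 after IFNa (adjusted p = 0.552) and 0.16 ± 0.17 after IFNg (adjusted p = 0.799), and without untreated replicate 1 these values were 0.09 and -0.018.

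B2m, which encodes the light chain shared by nearly all class I molecules, had intensities of 11691, 11234, 11030 and 11084 after IFNa and 10570 and 10593 after IFNg, against 10039, 10272 and 10183 untreated. Treated arrays were above untreated arrays without overlap, by a small margin. The change of 0.15 ± 0.09 after IFNa (95% interval -0.06 to 0.36, adjusted p = 0.679) and 0.06 ± 0.11 after IFNg (-0.19 to 0.31, adjusted p = 0.873) did not pass. Under quantile normalization the IFNg value was -0.0064. In every array B2m lay above the 99th percentile of probe sets (7340 to 8550), and whether its signal was near saturation was not tested.

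**Figure D2:**
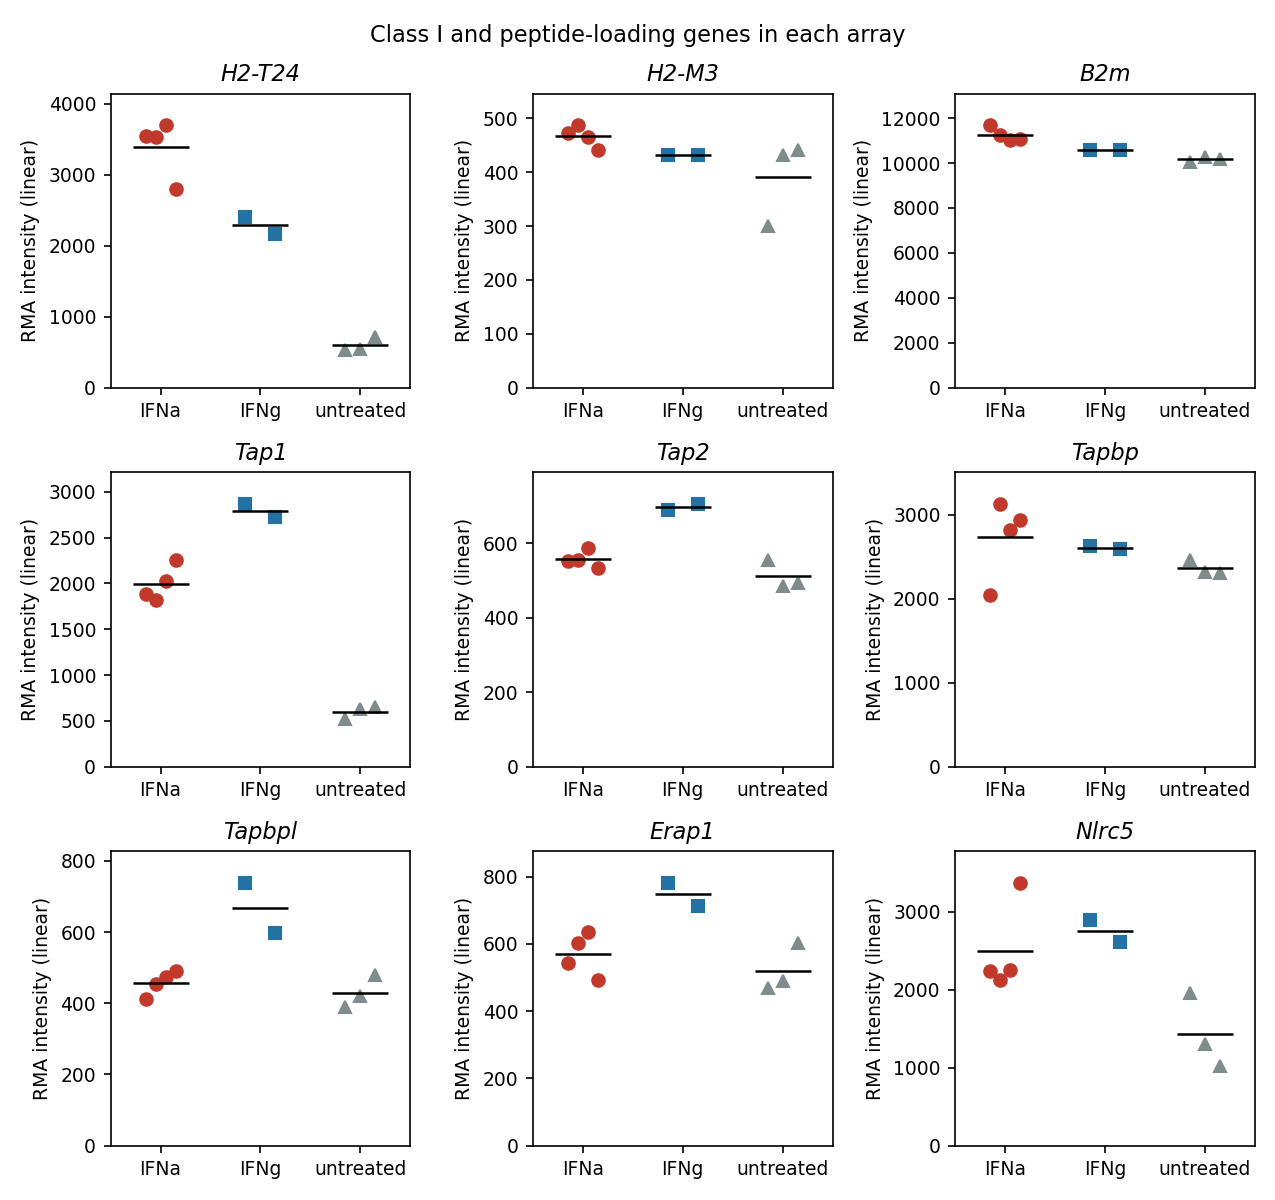
RMA intensity (linear scale from 0) of the 9 measured genes in each IFNa (circles), IFNg (squares) and untreated array (triangles), with group means as bars. H2-T24 and Tap1 show wide gaps between treated and untreated arrays; the vertical scale differs between genes.

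The transporter genes parted. Tap1 had intensities of 1883, 1815, 2031 and 2256 in the IFNa arrays and 2868 and 2725 in the IFNg arrays, against 523, 625 and 651 in untreated arrays. Here the order of the interferons was opposite to that of H2-T24, with both IFNg arrays above all IFNa arrays and all of these above the untreated ones. Tap1 rose by 1.74 ± 0.12 after IFNa (3.33-fold, limma adjusted p = 4.42e-05) and by 2.23 ± 0.15 after IFNg (4.68-fold, adjusted p = 7.37e-05).

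Tap2, the partner of Tap1 in the transporter, had intensities of 554, 556, 589 and 533 after IFNa and 689 and 706 after IFNg, against 556, 487 and 494 untreated. The IFNa arrays overlapped the untreated ones, whereas both IFNg arrays lay above all of them. The change was 0.12 ± 0.10 after IFNa (95% interval -0.10 to 0.35, adjusted p = 0.808) and 0.45 ± 0.12 after IFNg (0.17 to 0.72, adjusted p = 0.189). After IFNg Tap2 passed without the narrow arrays, at 0.51 (adjusted p = 0.0292), and was at 0.23 under quantile normalization (adjusted p = 0.746). The upper ends of these intervals lay below the lower ends of those of Tap1, 1.46 after IFNa and 1.89 after IFNg.

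The loading genes did not pass in either comparison. Tapbp, which encodes tapasin, the bridge between the transporter and the heavy chain, had intensities of 2038, 3125, 2812 and 2932 after IFNa and 2623 and 2590 after IFNg, against 2464, 2319 and 2302 untreated. IFNa replicate 1 was below all untreated arrays and the other IFNa arrays above them. The change was 0.19 ± 0.15 after IFNa and 0.14 ± 0.18 after IFNg (adjusted p = 0.792 and 0.819), and the IFNg value turned to -0.082 under quantile normalization.

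Tapbpl, which encodes a peptide editor that acts outside the main loading complex, had intensities of 412, 454, 475 and 490 after IFNa and 738 and 596 after IFNg, against 390, 419 and 479 untreated. Only the IFNg arrays stood clear of the untreated ones. The change was 0.09 ± 0.13 after IFNa (adjusted p = 0.912), turned to -0.0063 without the narrow arrays, and 0.63 ± 0.15 after IFNg (1.55-fold, adjusted p = 0.11).

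Erap1, the aminopeptidase that shortens peptides to the length class I molecules hold, had intensities of 544, 603, 635 and 492 after IFNa and 781 and 714 after IFNg, against 468, 490 and 603 untreated. It followed the same order as Tapbpl, with overlap after IFNa and none after IFNg. The change was 0.13 ± 0.14 after IFNa (adjusted p = 0.872) and 0.53 ± 0.16 after IFNg (1.44-fold, adjusted p = 0.289). Under quantile normalization the IFNg values of Tapbpl and Erap1 were 0.45 and 0.34 (adjusted p = 0.37 and 0.284).

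By arrays that do not overlap, 4 of the 9 genes lay higher after IFNa (H2-T24, B2m, Tap1 and Nlrc5), against 3.68% of all genes. After IFNg 8 of 9 did, H2-M3 being the exception, against 12.3% of all genes. None lay lower without overlap in either comparison, where 6.75% and 15.5% of all genes did. Of the 9, 3 had an unadjusted p under 0.05 after IFNa and 6 after IFNg, against 11.9% and 8.23% of all genes.

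For Nlrc5 the call depended on the choice of probe set and on the arrays in the fit. The array holds 19 probe sets annotated with Nlrc5 alone, against 1 for each of the other 8 measured genes. The probe set of highest mean, 10574100, had intensities of 2247, 2128, 2260 and 3370 after IFNa and 2893 and 2612 after IFNg, against 1960, 1307 and 1021 untreated. Treated arrays lay above untreated arrays, but the untreated arrays were widely spread. Its change was 0.83 ± 0.23 after IFNa (adjusted p = 0.117) and 1.00 ± 0.28 after IFNg (adjusted p = 0.199), so Nlrc5 counts as not called above. Without untreated replicate 1 it passed after IFNa, at 1.09 (adjusted p = 0.0288). Without both narrow arrays this probe set passed after IFNa at 0.94 and after IFNg at 1.25 (limma adjusted p = 0.0042 and 0.0025).

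Tested one by one among 21425 probe sets with a single symbol, 15 of the 19 passed as higher after IFNa and the same 15 after IFNg, where 1.82% and 1.27% of all such probe sets did. This test was added after seeing the data, and the 19 report on 1 gene in the same samples, so they are not replicates. All 19 estimates were above 0, from log2 0.40 to 2.56 after IFNa (median 1.74, 3.34-fold) and from 0.67 to 3.07 after IFNg (median 2.20, 4.58-fold). The 15 that passed ranged from 1.06 to 2.56 after IFNa (adjusted p = 1.34e-05 to 0.0138) and from 1.49 to 3.07 after IFNg (5.85e-05 to 0.00927).

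The next highest in mean, 10574098, had intensities of 2189, 2067, 2525 and 2733 after IFNa and 3415 and 2975 after IFNg, against 506, 448 and 591 untreated. Its groups were far apart, with changes of 2.21 ± 0.14 after IFNa and 2.64 ± 0.17 after IFNg (limma adjusted p = 2.93e-05 and 7.15e-05). The steepest, 10574145, had intensities of 745, 704, 938 and 1115 after IFNa and 1316 and 1141 after IFNg, against 132, 129 and 183 untreated, a change of 2.56 ± 0.19 and 3.07 ± 0.23.

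The 4 probe sets that did not pass were 10574100, 10574153, 10574155 and 10574161, with changes of 0.40 to 0.83 after IFNa (adjusted p = 0.0692 to 0.396) and 0.67 to 1.00 after IFNg (0.056 to 0.315). In each of these 4 untreated replicate 1, a narrow array, was the highest of the untreated arrays, as it was in 9 of the 19. Averaged over its 19 probe sets, Nlrc5 changed by 1.60 after IFNa and 2.03 after IFNg (adjusted p = 1.11e-04 and 1.99e-04). What each probe set matches in the transcript was not analysed here.

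**Figure D3:**
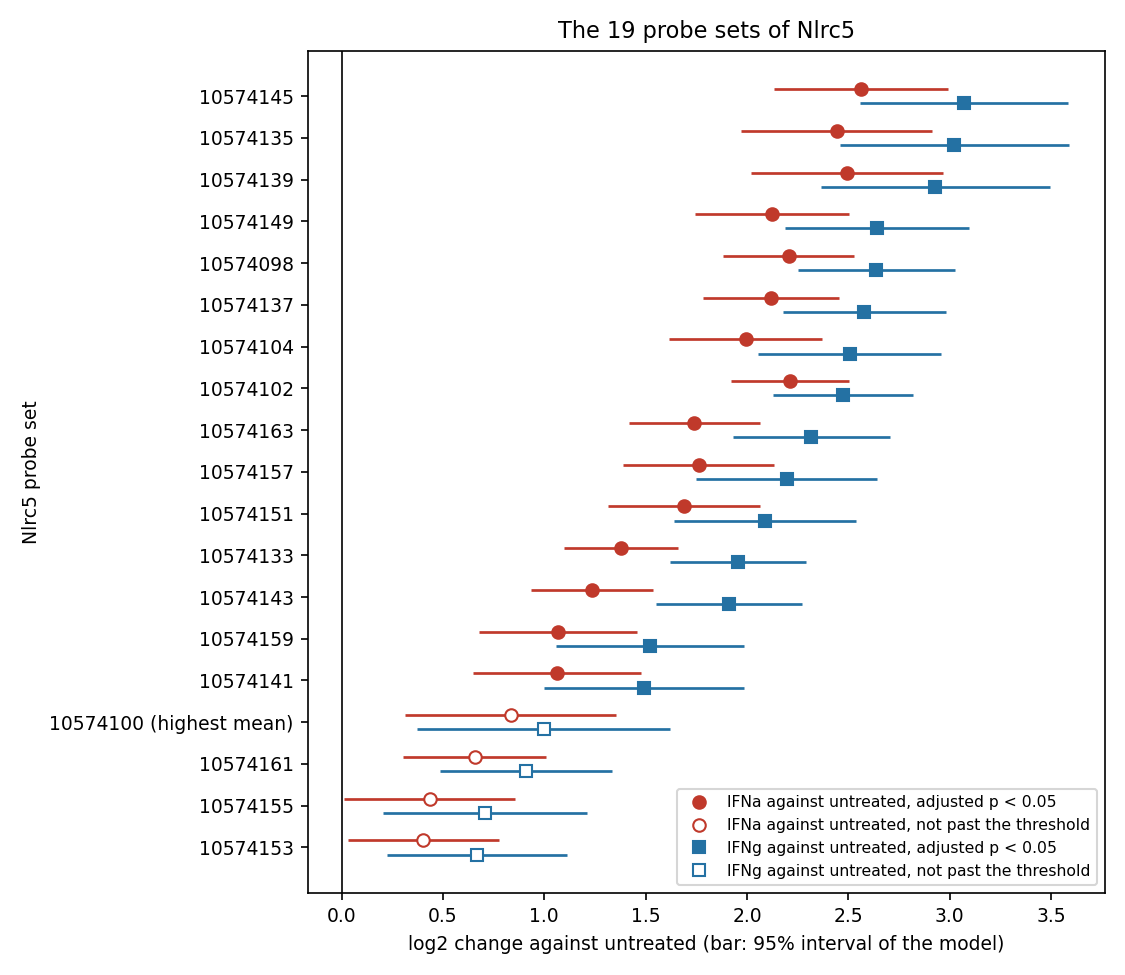
Log2 change of each of the 19 Nlrc5 probe sets after IFNa (circles) and IFNg (squares) against untreated, ordered by the IFNg change, with 95% intervals; filled symbols passed the threshold over 21425 probe sets. The probe set of highest mean is among the 4 lowest and open, and 15 others are filled in both comparisons.

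IFNa and IFNg were also set against each other directly, at doses that differ (10000 U and 8000 U). None of the 9 genes passed in the limma fit, where 0.977% of all genes did (0.44% higher and 0.537% lower after IFNa), and 5 had an unadjusted p under 0.05, against 7.07% of all genes. H2-T24 was higher after IFNa by 0.56 ± 0.17 (95% interval 0.19 to 0.94, adjusted p = 0.286). The other 4 were lower after IFNa. Tap1 differed by -0.49 ± 0.14 (-0.81 to -0.17, adjusted p = 0.251), Tapbpl by -0.54 ± 0.14 (-0.86 to -0.22, adjusted p = 0.192), Erap1 by -0.40 ± 0.15 (-0.74 to -0.05, adjusted p = 0.556) and Tap2 by -0.32 ± 0.12 (-0.58 to -0.06, adjusted p = 0.48).

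Without the narrow arrays H2-T24 (0.65, adjusted p = 0.034) and Tap1 (-0.55, adjusted p = 0.0187) passed in the direct comparison, of 2.74% of all genes called. In H2-T24, H2-M3 and B2m all IFNa arrays lay above both IFNg arrays, and in Tap1, Tap2, Tapbpl and Erap1 all lay below, against 12.8% and 15.6% of all genes. For Nlrc5 the difference was -0.16 ± 0.26 at the probe set of highest mean. All 19 of its probe sets were lower after IFNa, by up to 0.67, 11 of them with an unadjusted p under 0.05, the lowest adjusted p being 0.107. For H2-M3, B2m and Tapbp the intervals were -0.26 to 0.48, -0.15 to 0.33 and -0.34 to 0.43.

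Genes around these steps were read from 8 lists of 132 genes, 109 of which had a value. After IFNa 4 of the 109 rose and 1 fell, and after IFNg 5 rose, against 1.79% and 0.856% of all genes called higher and lower after IFNa and 1.24% higher after IFNg. The list medians over the 109 were log2 0.11 and 0.24, against -0.02 and -0.06 over all genes. Without the narrow arrays 6 rose and 2 fell after IFNa, and 6 rose after IFNg, where 5.6% and 2.55% of all genes were called.

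Of the immunoproteasome and its activator, which tune the cutting of peptides for class I, Psmb9 and Psme2 rose after IFNa and Psmb9 after IFNg, of 7 measured (medians 0.55 and 0.81). Psmb9 had intensities of 859, 1027, 1207 and 1091 after IFNa and 1676 and 1430 after IFNg, against 509, 493 and 665 untreated. All treated arrays stood above the untreated ones, the IFNg arrays highest, as for its neighbour Tap1. The change was 0.92 ± 0.16 after IFNa (limma adjusted p = 0.0126) and 1.49 ± 0.19 after IFNg (adjusted p = 0.0038). The IFNa call ended without untreated replicate 2 and the IFNg call without IFNg replicate 1.

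Psme2, a subunit of the PA28 activator, had 2961, 2547, 2708 and 2764 after IFNa and 2683 and 2522 after IFNg, against 1144, 1610 and 1792 untreated. Both treated groups were above untreated and overlapped each other, with changes of 0.88 ± 0.16 (adjusted p = 0.0148) and 0.81 ± 0.19 (adjusted p = 0.0905). The IFNa call ended without IFNa replicate 1 and without untreated replicate 2.

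On chromosome 17 Psmb9, Tap1, Psmb8 and Tap2 follow one another in that order. Psmb8, another catalytic subunit of the immunoproteasome, had 685, 684, 691 and 776 after IFNa and 779 and 706 after IFNg, against 250, 425 and 550 untreated. Its treated arrays all lay above the untreated ones, which were widely spread, and its changes of 0.87 ± 0.23 and 0.93 ± 0.27 did not pass (adjusted p = 0.0954 and 0.235). The changes along the cluster after IFNg were thus 1.49, 2.23, 0.93 and 0.45, of which the first 2 passed.

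No gene passed among 17 other class I heavy chains with a value (medians 0.11 after IFNa and -0.08 after IFNg), or among 8 class I-like molecules (-0.14 and -0.12). The other 14 of the 31 listed heavy chains had no value. H2-D1, H2-Q6, H2-Q7, H2-Q8, H2-Q9, H2-T9, H2-T22 and H2-T23 were among them, so their response cannot be read here. None passed among 19 genes of folding and peptide editing in the endoplasmic reticulum (0.08 and 0.13), such as those for calreticulin and ERp57. The same held for 16 genes of the constitutive proteasome (0.33 and 0.43), 10 peptidases (0.18 and 0.42) and 13 genes of cross-presentation and class I trafficking (-0.01 and 0.07). The peptidases ranged from -0.17 to 1.16 after IFNa and from 0.08 to 1.49 after IFNg. Of them, Lap3 passed in both comparisons under some alternatives, such as quantile normalization. In the constitutive proteasome all 16 IFNg estimates lay above 0, from 0.24 to 0.84, against a median of -0.06 over all genes. The share of all genes above 0 was not counted, so this number has no background beside it.

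Of 19 transcription factors and cofactors of class I genes, Stat2 and Irf1 rose and Rfxank fell after IFNa, and Stat2, Irf1, Irf8 and Ciita rose after IFNg. Irf1, which binds response elements of class I and Tap1 promoters, had 2809, 2823, 2861 and 3073 after IFNa and 6083 and 6398 after IFNg, against 358, 660 and 716 untreated. The 3 groups did not overlap, with IFNg highest, and the changes were 2.39 ± 0.21 and 3.50 ± 0.26 (limma adjusted p = 1.65e-04 and 1.25e-04). A dimmer probe set of Irf1 gave 0.51 and 1.36 (adjusted p = 0.208 and 0.00901 among single-symbol probe sets).

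Stat2, part of the ISGF3 complex, had 3253, 3040, 3510 and 3269 after IFNa and 2331 and 2083 after IFNg, against 307, 403 and 477 untreated. As for H2-T24, the IFNa arrays were highest (changes of 3.07 ± 0.15 and 2.50 ± 0.18, limma adjusted p = 3.68e-06 and 1.21e-04).

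Irf8, a partner of IRF1 in macrophages, had 1475, 1591, 1720 and 1602 after IFNa and 6916 and 6541 after IFNg, against 1310, 2019 and 1860 untreated. It was high after IFNg alone, by 1.98 ± 0.18 (adjusted p = 5.32e-04), and lower after IFNa than after IFNg by log2 -2.08 ± 0.17 (limma adjusted p = 5.06e-04). Ciita, the class II counterpart of NLRC5, likewise rose after IFNg by 1.77 ± 0.16 (adjusted p = 4.75e-04), changed by 0.13 ± 0.13 after IFNa (adjusted p = 0.87) and differed between IFNa and IFNg by -1.64 ± 0.15 (limma adjusted p = 7.81e-04).

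Rfxank, a subunit of the RFX complex on class I and II promoters, was named after its values were seen. It had 304, 343, 306 and 266 after IFNa and 366 and 396 after IFNg, against 401, 511 and 461 untreated, and fell by 0.59 ± 0.13 after IFNa (limma adjusted p = 0.0467). Leaving out any single array other than untreated replicate 1 ended this call.

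**Figure D4:**
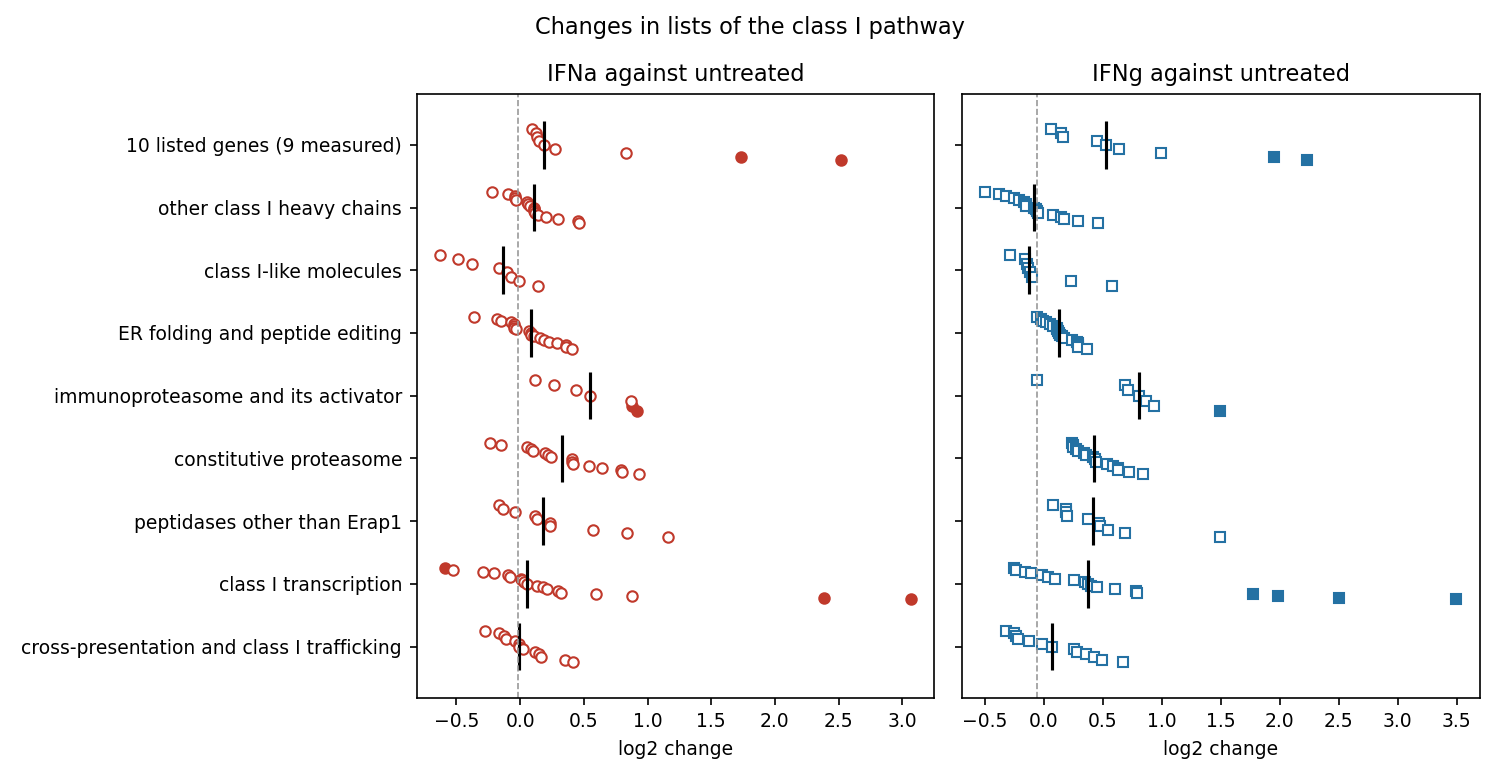
Log2 change after IFNa (left) and IFNg (right) against untreated for the 9 measured genes and 8 lists of the class I pathway; each symbol is a gene, filled where it passed, black bars are list medians and the dashed line is the median of all genes. Filled symbols occur among the 9 genes, the immunoproteasome and the transcription list.

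Likeness of profile was measured as the root mean square difference in log2 value over the 9 arrays after each gene was set on its untreated mean. The 3 genes nearest to Tap1 were Apobec3 (0.11), Pim1 (0.22) and Trim21 (0.27). Apobec3, which encodes a cytidine deaminase that restricts retroviruses, changed by log2 1.67 after IFNa and 2.10 after IFNg, close to the 1.74 and 2.23 of Tap1. The 3 nearest to H2-T24 were Xaf1 (0.16), Socs2 (0.24) and Slfn8 (0.26). Xaf1, a gene linked to apoptosis and induced by interferon, changed by 2.50 and 1.65, against 2.52 and 1.96 for H2-T24. All 6 genes passed in both comparisons with untreated. They were picked on these same 9 arrays for likeness to genes that passed, so their similar changes and calls follow largely from the choice.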

How the data were processed

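Per the labels' protocols, TriZol RNA was biotin-labelled with an Affymetrix whole-transcript kit. The authors' deposited values are intensity on a linear scale, made with Affymetrix Power Tools and RMA per the submitters' processing notes, with no version. Which arrays were normalized together is not given in the sources used here. Arrays give no counts, so their number limits the precision.

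Log2 intensity was taken of 24922 probe sets, of which 21425 carried 1 symbol, 1399 several and 2098 none in the platform table. A gene was represented by the single-symbol probe set of highest mean log2 value. The model, fitted with limma 3.58.1 (R 4.3.3), held 3 group means over the 9 arrays (6 residual and 3.62 prior degrees of freedom) and 1 shared spread per gene, which matters most for the 2 IFNg arrays. P-values were two-sided and adjusted over all genes of a comparison. No filter on low intensity was used. The fit was tested on simulated data with independent noise of equal spread in every array, which did not mimic the narrow arrays. Its outcome is not given here, and no result above rests on it.

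The genes, lists and tests were chosen with earlier results of these data known. Named genes were the 10 genes, up to 4 called genes with the smallest p of each list, the neighbours Psmb8 and Psmb9 and the 3 genes of nearest profile to each called gene, predicted genes left out. Alternatives covered the variance model, filter, normalization, samples in the fit, array weights, replicate block, narrow arrays, probe set choice, a constant of 32 added before the log and each array left out. The mean of all probe sets and the test of each probe set were added after seeing the data. Tables and plots were made with Python 3.11.15, pandas 2.3.3, NumPy 2.4.6 and matplotlib 3.10.9.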

Additional observations from a re-analysis of the deposited data

Results flagged for a closer look

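Among 35 sets of IFNa arrays examined (9 genes, 8 named genes of the pathway and the 18 further probe sets of Nlrc5), 3 had 1 array whose gap to its nearest neighbour exceeded Dixon's 95% critical value as a share of the range of the 4 arrays in log2 intensity. Chance flags about 1 in 20 such groups. In all 3 that array was IFNa replicate 4, the array with the narrowest spread of intensities. It was the lowest for H2-T24 (2795, a gap of 0.832 of the range), the highest for Nlrc5 at its probe set of highest mean (3370, a gap of 0.869) and the highest for Psmb8 (776, a gap of 0.925). The part of the narrow spread in these values was not tested.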

How the results depend on the processing

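Under all 21 alternatives H2-T24 and Tap1 stayed called as higher, H2-T24 at log2 2.42 to 2.69 after IFNa and 1.77 to 2.09 after IFNg and Tap1 at 1.58 to 1.80 and 2.05 to 2.29. Nlrc5 was called under 5 alternatives after IFNa and 4 after IFNg, with values of 0.62 to 2.21 and 0.78 to 2.64, the highest with its probe set of second-highest mean. The number of the 9 genes called was 2 after IFNa, 2 after IFNg and 0 in the direct comparison. It became 5, 6 and 5 with array weights (28.2%, 31.2% and 8.33% of all genes), 4 after IFNg with the replicate block (3.54%), which added Tapbpl (0.70, adjusted p = 0.0487) and Erap1 (0.61, adjusted p = 0.0499), 4 after IFNg and 2 in the direct comparison without the narrow arrays (2.55% and 2.74%), and 1 in the direct comparison (H2-T24) under quantile normalization (1.42%). The default estimator of array weights did not converge, and the gene-by-gene one used gave untreated replicate 2 a weight of 5.07, against 0.21 and 0.297 for the other untreated arrays. Leaving out 1 array gave 2 to 3 after IFNa, 2 to 2 after IFNg and 0 to 0 in the direct comparison. Of the 109 list genes, 5 were called in each comparison with untreated. After IFNa this became 11 under quantile normalization, 48 with array weights, 9 with the replicate block and 8 without the narrow arrays, and 2 to 11 without 1 array (3 without IFNa replicate 1, 2 without untreated replicate 2, 11 without untreated replicate 3). After IFNg it became 57 with array weights and 4 to 10 without 1 array (10 without untreated replicate 3). Estimates changed sign for genes that were not called: Tapbpl after IFNa (-0.0063) and H2-M3 after IFNg (-0.018) without the narrow arrays, H2-M3 after IFNg without untreated replicate 1 (-0.018 to 0.26 over the arrays left out), B2m (-0.0064) and Tapbp (-0.082) after IFNg under quantile normalization, and Tapbp in the direct comparison with the replicate block (-0.012) and without IFNa replicate 2 (-0.025 to 0.18 over the arrays left out). The cause of these shifts was not tested. Over genes and alternatives 535 values kept their direction and their side of the threshold, 25 newly passed and 7 changed sign. Part of the 535 could hardly move. Genes with 1 probe set keep their estimate under another choice of probe set, and leaving out an array of the group not compared also keeps the estimate. The replicate numbers of the titles were not used as pairs in the main fit. Deviations of same-numbered IFNa and untreated arrays correlated at -0.21 to 0.60. With IFNa replicate 4 left out, as it has no untreated array of its number, 4 of 6 arrays correlated best with their own number. Untreated replicate 1 correlated at 0.61 with IFNa replicate 4, the other narrow array. Whether the numbers mark pairs cannot be told from these values.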
